A study of Arabidopsis thaliana with 6 samples.

Results

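hAT elements are DNA transposons that move by excision and reinsertion, named after hobo of Drosophila, Activator (Ac) of maize and Tam3 of snapdragon. The 77 hAT genes described here are the gene models on the array whose annotation names a hAT-like transposase and no gypsy, Athila, copia, CACTA or Mutator element, out of 30361 gene models in all. Their expression was measured in young leaves of Arabidopsis thaliana after 4 weeks of growth on soil under long days, with no treatment. The 6 one-colour arrays fall into 3 genotypes of 2 arrays each: wild type Col-0, a kyp mutant and a cmt3 mutant. Neither mutant is given an allele in the labels, which are also silent on whether replicate arrays stem from separate plants. The p-values thus reflect the spread among 6 arrays, and that spread may be technical. In whole leaves, fewer cells that express a gene and less RNA per cell cannot be told apart.

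Transposase is the enzyme that cuts a hAT element out at its terminal inverted repeats and joins it into a new site. In plants most copies are kept silent by repressive chromatin. KYP (SUVH4) methylates lysine 9 of histone H3, CMT3 methylates cytosines in CHG contexts, and each binds the mark that the other makes, so that both marks are maintained together over transposons. A few hAT-derived genes have been taken over by the host, among them DAYSLEEPER, which Arabidopsis needs for normal development.

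The annotation compares each hAT gene with a known transposase. The closest match was Tag2, a hAT transposase of Arabidopsis itself, for 55 genes, the open reading frame of maize Ac for 19 and Tam3 for 3. The p-values of these sequence matches, as given in the authors' deposited table, ran from 6.1e-299 to 3.9e-05. RefSeq lists 76 of the 77 loci as pseudogenes, and DAYSLEEPER (AT3G42170) is the 1 protein-coding locus. The genes had a median length of 1800 bp, and 66 of them were measured by 2 probes and 11 by 3 probes. Among the gene models within 50 kb of a hAT gene, the median share of other transposon genes was 15.8%, against 45.2% around CACTA genes and 28.6% around Mutator genes, the other large groups of DNA transposons.

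The array medians lay between 9.89 and 9.96 on the log2 scale. Of the 4 leaf markers, the Rubisco subunit gene RBCS1A, the Rubisco activase gene RCA and CAB3, which encodes a chlorophyll-binding protein, lay between 15.80 and 15.98 on the log2 scale, near the highest intensity in the files, so their steadiness across genotypes carries little information. CAB2, of the same family as CAB3, lay between 9.73 and 10.28, about the array median. Markers of other organs had summed intensities over the 6 arrays of 463 to 680 for 4 root genes, 779 to 966 for 4 flower genes, 62.2 to 111 for 2 pollen genes and 158 to 263 for 3 seed genes, against 185200 to 191400 for leaf. None of these markers was called by limma in any comparison. At most 0.56% of all gene models were called in 1 direction of a comparison, so so few markers without a call say little. CMT3 transcript had log2 intensities of 12.61 and 12.59 in wild type, 12.79 and 12.70 in kyp and 10.94 and 10.97 in cmt3. It fell by 1.65 on the log2 scale in the cmt3 arrays (limma, adjusted p = 0.0159), a call that was lost without any 1 array and with the slide as a block. KYP transcript stood at 10.24 and 10.19 in wild type, 10.04 and 9.91 in kyp and 10.33 and 10.36 in cmt3, and its log2 change of -0.24 ± 0.10 (SE) in kyp missed the threshold (limma, adjusted p = 0.515). The labels do not give the allele, so this level does not check the kyp label. By the image names, slide 1 carried the wild type pair and a kyp array (replicate 1), and slide 2 the other kyp array with the cmt3 pair. Wild type and cmt3 share no slide, so within a slide they cannot be compared.

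Most hAT genes were dim in wild type leaves. Their median log2 intensity was 5.60, against 9.90 over all gene models, and 50 of the 77 (64.9%) lay in the lowest 25% of intensities, the part of the range at or under 6.20. The shares were 73.2% for CACTA and 67.0% for Mutator genes. The files carry no detection values, so no gene was called absent. The lowest means were those of AT1G31166 (3.73 ± 0.14, SD, n = 2), AT3G44793 (3.92 ± 0.16) and AT5G36990 (4.03 ± 0.13). The hAT genes varied more between arrays of a genotype than gene models in general, without a test of that difference. The median difference between the 2 wild type arrays was 0.44 on the log2 scale for hAT genes and 0.17 for all gene models. It was 0.48 for CACTA and 0.52 for Mutator genes, so the wider spread was not particular to hAT genes. Between these arrays 4 hAT genes differed by more than 2. The median SD between the wild type arrays was 0.15 for the 8 hAT genes under 4.5, 0.40 for the 38 from 4.5 to 6, 0.39 for the 20 from 6 to 8, 0.34 for the 6 from 8 to 10 and 0.08 for the 5 at 10 or more. The widest gap, named after its value was seen, was that of AT1G46192, at 7.78 on one wild type array and 4.67 on the other.

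Only 5 hAT genes lay above the array median in wild type. AT1G80020 was the brightest, at 13.98 and 13.75 in wild type, 13.93 and 14.10 in kyp and 14.08 and 14.19 in cmt3. DAYSLEEPER stood at 12.82 and 12.93 in wild type, 12.94 and 13.00 in kyp and 12.79 and 12.76 in cmt3. AT3G14800 stood at 12.41 and 12.56 in wild type, 12.39 and 12.38 in kyp and 12.33 and 12.39 in cmt3. The changes against wild type in these 3 genes were at most 0.26 in size on the log2 scale. AT4G13120 stood at 11.45 and 11.47 in wild type, 11.70 and 11.74 in kyp and 11.83 and 11.86 in cmt3, without overlap between genotypes. The log2 changes of AT4G13120 were 0.26 ± 0.09 (SE; limma, adjusted p = 0.461) in kyp and 0.38 ± 0.09 (adjusted p = 0.122) in cmt3. AT3G29120 had both wild type arrays at 11.19, above kyp at 10.28 and 10.56 and cmt3 at 10.41 and 10.56. That is -0.78 ± 0.13 (SE; limma, adjusted p = 0.281) in kyp and -0.71 ± 0.13 (adjusted p = 0.102) in cmt3, so none of the 5 bright genes passed the test. The plot of wild type levels shows these 5 apart from the rest. CYTOSLEEPER (AT1G15300), the other hAT locus that carries a gene name in RefSeq, ranked sixth at 9.47 ± 0.07 (SD, n = 2); it is named after its value was seen.

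**Figure D1:**
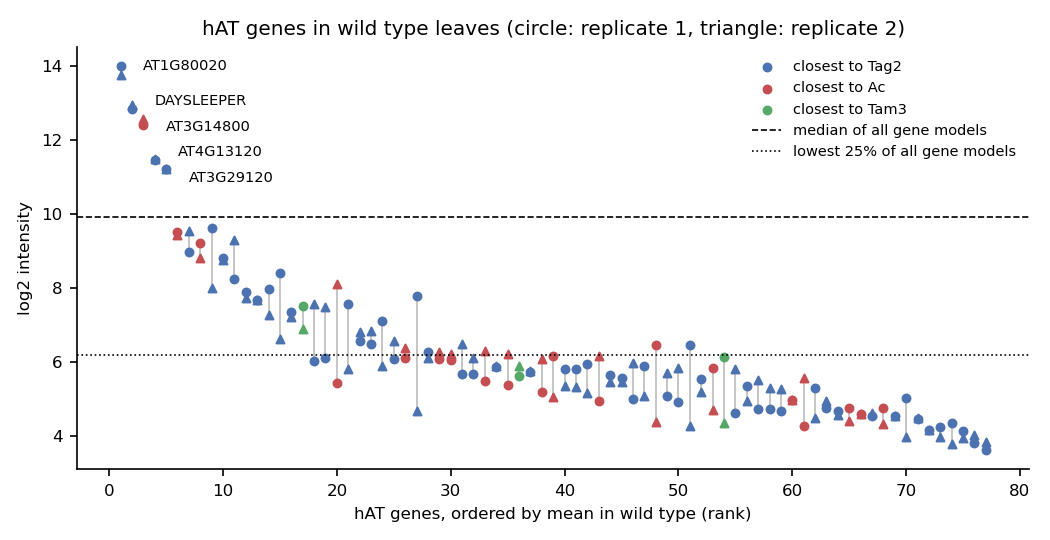
Log2 intensity of the 77 hAT genes on both wild type arrays, ordered by mean and coloured by the closest known transposase, with a line joining the 2 arrays of a gene. Of the 77, 5 lie above the median of all gene models (9.90, dashed) and 50 have a mean at or under the limit of the lowest 25% (6.20, dotted).

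In cmt3, 3 hAT genes rose and none fell at an adjusted p under 0.05 (limma, over all 30361 gene models). Of all gene models, 0.56% were called higher and 0.181% lower in this comparison, and the 3 of 77 make 3.9%. All 3 resemble Tag2, as do 55 of the 77 hAT genes. In the same comparison 20 of 332 CACTA genes (6.02%) and 5 of 279 Mutator genes (1.79%) were called higher, and none of either group lower.

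AT3G45270, at 16612308 to 16614548 on chromosome 3 in the files' own coordinates (annotation Release 6, build not named), had log2 intensities of 5.53 and 5.18 in wild type, 7.64 and 7.77 in kyp and 8.87 and 9.24 in cmt3. The 3 genotypes did not overlap, with kyp between wild type and cmt3. The gene rose 13.0-fold in cmt3 (log2 change 3.70 ± 0.20 SE; limma, adjusted p = 0.0148) and stood 5.11-fold above wild type in kyp (2.35 ± 0.20, adjusted p = 0.0776), which missed the threshold.

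AT3G43686, at 15598707 to 15601934 on chromosome 3, had log2 intensities of 4.53 and 4.63 in wild type, 9.31 and 8.32 in kyp and 9.03 and 8.61 in cmt3. Both mutants lay well above wild type and overlapped each other. The gene rose 18.9-fold in cmt3 (4.24 ± 0.37 SE; limma, adjusted p = 0.038), and the fold in kyp was also 18.9 (4.24 ± 0.37), where it missed the threshold (adjusted p = 0.0815).

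AT2G15940, at 6949996 to 6951876 on chromosome 2, had log2 intensities of 7.34 and 7.22 in wild type, 9.14 and 8.78 in kyp and 9.36 and 9.38 in cmt3. Again no 2 genotypes overlapped, and kyp lay nearer to cmt3 than to wild type. It rose 4.25-fold in cmt3 (2.09 ± 0.15 SE; limma, adjusted p = 0.0275) and stood 3.20-fold above wild type in kyp (1.68 ± 0.15, adjusted p = 0.0815).

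The 3 calls rest on all 6 arrays. Without any 1 array none was called, with adjusted p from 0.0551 to 0.199 in fits of fewer residual degrees of freedom, while the log2 changes stayed between 3.51 and 3.88 for AT3G45270, 4.03 and 4.45 for AT3G43686, and 2.03 and 2.15 for AT2G15940. With the slide as a block, none was called either, at changes of 3.57, 5.23 and 2.45 (adjusted p from 0.214 to 0.319). In wild type AT3G45270, AT3G43686 and AT2G15940 lay at percentiles 13.6, 3.55 and 34.8 of all intensities, where the fold depends on the scale. On that of log2(intensity + 100), which shrinks changes of dim genes, all 3 passed the test in cmt3 at changes of 2.16, 2.16 and 1.57 (limma, adjusted p = 0.0058, 0.0378 and 0.0113), and their changes in kyp were 1.13, 2.17 and 1.23 (adjusted p = 0.0889, 0.128 and 0.0556). Whether their 2 probes also bind related copies was not tested.

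In kyp no hAT gene was called by limma in either direction, against 0.0988% of all gene models called higher and 0.00659% called lower. Of the CACTA genes 4 (1.2%) were called higher in kyp and none lower, and no Mutator gene was called. At an unadjusted p under 0.05, 12 hAT genes were higher (15.6%, against 5.12% of all gene models) and 5 were lower (6.49%, against 5.11%). In cmt3 the same counts were 12 higher (15.6%, against 12.9%) and 4 lower (5.19%, against 10.1%). Both kyp arrays lay above both wild type arrays in 19 hAT genes (24.7%, against 23.0% of all gene models) and below them in 14 (18.2%, against 22.0%). Both cmt3 arrays lay above in 25 (32.5%, against 32.4%) and below in 15 (19.5%, against 25%). By direction alone, then, the shares of higher genes were near those of all gene models.

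Since 2 arrays a genotype leave few residual degrees of freedom, members were also counted by size: at least 2-fold from wild type, with no overlap between the arrays of mutant and wild type. By this rule 9 hAT genes (11.7%) were above wild type in kyp, against 2.08% of all gene models, and 12 (15.6%) in cmt3, against 4.09%. Below wild type were 5 in each mutant (6.49%), against 2.36% of all gene models in kyp and 5.18% in cmt3. The shares of all gene models, here and below, are not matched for level. Of the hAT genes 64.9% lay in the lowest 25% of intensities, and their wild type arrays differed by a median of 0.44, against 0.17 for all gene models. How much level and spread add to the hAT shares was not tested. The count below wild type in kyp was 9 without wild type replicate 2 (11.7%, against 4.61% of all gene models) and 8 without kyp replicate 2. On the scale of log2(intensity + 100), 5 genes were above wild type in kyp (6.49%, against 0.652% of all gene models on that scale) and 4 in cmt3 (5.19%, against 1.83%). None was below on that scale, against 0.711% of all gene models in kyp and 2.8% in cmt3. The median change over all 77 was 0.05 in kyp and 0.16 in cmt3, against 0.00 and 0.03 over all gene models. The plot of every gene's change shows values on both sides of 0, with a tail of larger positive values. Both mutants are compared with the same 2 wild type arrays. Within slide 1, kyp replicate 1 against the wild type arrays gave a median of 0.03. With this 1 kyp array the 2-fold rule was met above wild type by 11 hAT genes (14.3%, against 3.71% of all gene models) and below by 8 (10.4%, against 3.23%).

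**Figure D2:**
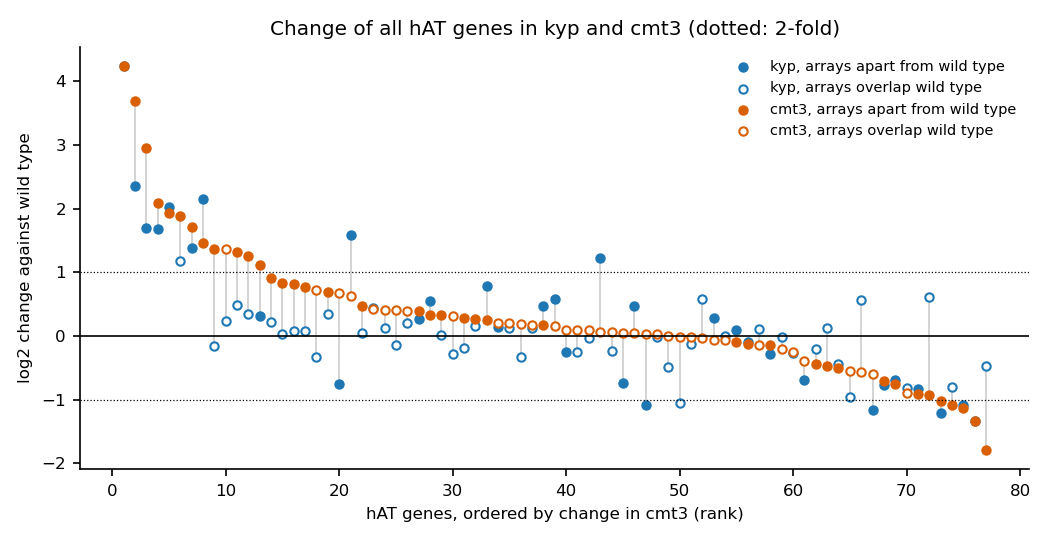
Log2 change against wild type of each of the 77 hAT genes in kyp (blue) and cmt3 (orange), ordered by the change in cmt3, with filled points where the 2 mutant arrays do not overlap the 2 wild type arrays. The highest point is AT3G43686, at 4.24 in both mutants, and dotted lines mark a 2-fold change.

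The rule was met in both mutants by 7 genes above wild type, which are 7 of the 9 in kyp and 7 of the 12 in cmt3. They make 9.09% of the hAT genes, against 1.16% of all gene models past the rule in both mutants, and since both comparisons use the same wild type arrays the overlap is no independent evidence. Beside the 3 genes above, these were AT2G05700, AT2G04710 and AT4G12260, which resemble Ac, and AT1G34240, which resembles Tag2. AT2G05700 stood at 5.84 and 4.70 in wild type, 6.79 and 7.14 in kyp and 8.08 and 8.35 in cmt3. Its wild type arrays lay more than 1 apart, and all 3 genotypes were still separate, with cmt3 highest. Its log2 change was 1.69 ± 0.42 (SE; limma, adjusted p = 0.375) in kyp and 2.95 ± 0.42 (adjusted p = 0.0806) in cmt3.

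AT2G04710 stood at 6.12 and 6.36 in wild type, 7.97 and 7.27 in kyp and 8.15 and 7.75 in cmt3. AT4G12260, the shortest of the 7 at 663 bp, stood at 5.37 and 6.22 in wild type, 7.50 and 8.14 in kyp and 7.68 and 7.79 in cmt3. AT1G34240 stood at 5.56 and 5.46 in wild type, 8.13 and 7.18 in kyp and 6.57 and 7.38 in cmt3. In these 3 genes the mutants overlapped each other and both cleared wild type. None of them passed the test, with log2 changes of 1.38, 2.03 and 2.15 in kyp (limma, adjusted p = 0.352, 0.298 and 0.334) and 1.72, 1.94 and 1.46 in cmt3 (adjusted p = 0.0943, 0.102 and 0.16).

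On the scale of log2(intensity + 100), the changes of AT2G05700, AT2G04710, AT4G12260 and AT1G34240 ran from 0.68 to 1.07 in kyp and from 0.65 to 1.499 in cmt3, where AT2G05700 passed the test (limma, adjusted p = 0.0244). All 7 genes were measured by 2 probes, and 5 of them belonged to the lowest 25% of intensities. Their means in the mutants ran from 6.96 to 9.37. By the way they were chosen, kyp replicate 1, which shares slide 1 with the wild type arrays, lies above both of them in each of the 7. Its distance from their mean ran from 1.52 (AT2G05700) to 4.73 (AT3G43686).

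**Figure D3:**
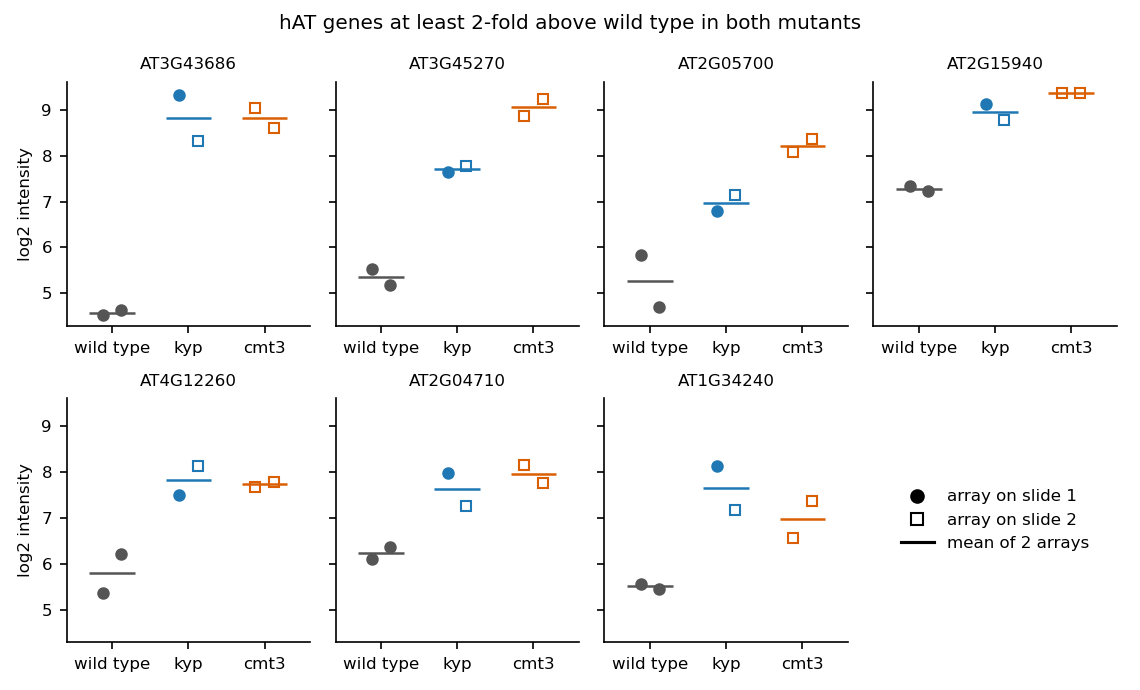
Log2 intensity on each array for the 7 hAT genes at least 2-fold above wild type in both mutants, with bars for the mean of 2 arrays, filled circles for arrays on slide 1 and open squares for slide 2. The genes were chosen so that the 4 mutant arrays lie above both wild type arrays, and the means in the mutants run from 6.96 to 9.37.

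The 7 genes lay on chromosomes 1 to 4 and did not neighbour each other. The share of transposon genes within 50 kb ran from 0% around AT1G34240 to 54.6% around AT3G43686. Of the 14 gene models that flank them, at gaps of 614 to 7849 bp, 2 were transposon genes and none was a hAT gene. None of the 14 was called in either mutant. Of all gene models, 0.0988% were called higher and 0.00659% lower in kyp, and 0.56% and 0.181% in cmt3. With shares this small, 14 gene models without a call say little. Their log2 changes ran from -0.89 to 0.28 in kyp and from -1.15 to 1.30 in cmt3. The highest of these was that of AT3G45260, which lies 2624 bp from AT3G45270 (limma, adjusted p = 0.111 in cmt3).

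Neighbouring hAT genes within 20 kb formed 4 pairs, none of which held a called gene, and no difference within a pair was tested. Only 3.9% of the hAT genes were called in cmt3, so these pairs without a call say little. AT5G39060 and AT5G39070, 1543 bp apart, had log2 changes in cmt3 of -0.44 and 1.37, and the wild type arrays of AT5G39070 stood at 8.40 and 6.63. AT3G17260 and AT3G17290, 7216 bp apart, had changes of -0.06 and 0.83. On chromosome 1, AT1G45760, AT1G45832 and AT1G46192 form the other pairs, at gaps of 1363 and 15063 bp, with changes of 0.00 ± 0.33 (SE), 0.41 ± 0.61 and -0.01 ± 1.14. The pairs were picked by distance and not by the rule for named genes.

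The 2-fold rule was met above wild type by 5 of 55 genes closest to Tag2 and 3 of 19 closest to Ac in kyp, and by 8 and 4 of them in cmt3. The median change was 0.05 for Tag2-like and 0.03 for Ac-like genes in kyp, and 0.16 and 0.18 in cmt3. The 3 genes closest to Tam3 differed among themselves: the log2 change of AT3G31422 stood at 1.59 ± 1.15 (SE) in kyp and 0.62 in cmt3, that of AT5G28141 at 0.61 and -0.92, and that of AT1G35745 at -1.21 and -1.03. AT3G31422 had wild type arrays at 6.12 and 4.36, kyp arrays at 7.22 and 6.44 and cmt3 arrays at 7.26 and 4.46. By length, the rule was met above wild type by 6 of the 38 genes longer than the median and 3 of the other 39 in kyp, and by 9 and 3 in cmt3. All 5 genes past the rule below wild type in kyp were at or under the median length, as were 3 of 5 in cmt3. No hAT gene of chromosome 5, which holds 15, met the rule in either direction in kyp, and 3 of them were above wild type in cmt3. Of all gene models, 2.08% met the rule above and 2.36% below wild type in kyp, and 4.09% and 5.18% in cmt3. The splits by match, length and chromosome rest on few genes and were not tested.

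Below wild type the differences reached -1.33 in kyp and -1.79 in cmt3. AT3G26605 had the lowest change in kyp, with 7.97 and 7.26 in wild type, 6.50 and 6.07 in kyp and 5.61 and 6.93 in cmt3. AT1G35745 stood at 7.52 and 6.88 in wild type, 5.78 and 6.21 in kyp and 6.37 and 5.97 in cmt3. AT2G12430 stood at 6.15 and 5.06 in wild type, 4.69 and 4.35 in kyp and 4.46 and 4.47 in cmt3. These 3 (3.9%, against 1.36% of all gene models) met the rule below wild type in both mutants, and none passed the test (limma, adjusted p from 0.377 to 0.508 in kyp and from 0.16 to 0.235 in cmt3). AT1G35480 met it in kyp alone, at -1.17 ± 0.76 (SE), with cmt3 arrays at 6.26 and 4.04 on either side of wild type. AT3G28400 had the lowest change in cmt3, -1.79 ± 1.09 (SE; limma, adjusted p = 0.396), with wild type arrays at 5.44 and 8.09. AT1G42852 stood at -1.08 ± 0.63 (SE; adjusted p = 0.373) in cmt3.

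The mutants were also compared with each other. No hAT gene was called by limma between kyp and cmt3, against 0.00988% of all gene models called higher and 0.0198% called lower in kyp. At an unadjusted p under 0.05, 2 were higher in kyp (2.6%, against 5.15% of all gene models) and 7 lower (9.09%, against 7.35%). Both kyp arrays lay above both cmt3 arrays in 8 (10.4%, against 20.3%) and below them in 23 (29.9%, against 28.0%). At least 2-fold apart without overlap were 3 with kyp above cmt3 (3.9%, against 3.0% of all gene models) and 7 with kyp below (9.09%, against 2.42%). The median difference of kyp minus cmt3 was -0.12, against -0.03 over all gene models. Within slide 2, with kyp replicate 2 alone, it was -0.13, and the 2-fold rule was met with kyp above cmt3 by 2 hAT genes (2.6%, against 3.97% of all gene models) and below by 9 (11.7%, against 2.84%).

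AT3G45270 had the smallest p of the 77, at -1.35 ± 0.20 (SE; limma, adjusted p = 0.284), and its kyp and cmt3 arrays did not overlap. Within slide 2, kyp replicate 2 lay 1.28 below the mean of the cmt3 arrays. AT2G05700 stood at -1.25 ± 0.42 (SE), AT5G35354 at -1.53 ± 0.63 and AT1G37038 at -1.43 ± 0.60, where kyp was the lower genotype as well.

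On the other side, AT4G06613 was higher in kyp, at 6.06 and 6.71 against 5.02 and 5.43 in cmt3 and 5.36 and 4.95 in wild type. Its kyp arrays cleared both other genotypes, which overlapped each other, and the difference of 1.16 ± 0.31 (SE) from cmt3 did not pass (limma, adjusted p = 0.361). AT5G28141 stood at 1.53 ± 0.72 (SE), with kyp arrays at 5.32 and 7.41, and AT3G28400 at 1.32 ± 1.09. Smaller differences without overlap were those of AT4G27597 (0.60), AT3G62520 (0.55), AT4G04316 (0.33) and AT1G31166 (0.30).

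Set beside the other DNA transposons, the shares past the 2-fold rule above wild type in kyp were 11.7% of 77 hAT genes, 12.0% of 332 CACTA genes and 6.09% of 279 Mutator genes. In cmt3 they were 15.6%, 22.0% and 7.53%. Below wild type the shares were 6.49%, 3.61% and 4.66% in kyp, against 2.36% of all gene models. In cmt3 those below were 6.49%, 3.61% and 3.94%, against 5.18%. These shares were not tested against each other, since genes of a family share sequence and arrays. The plot of shares gives them for all 3 comparisons. A further 6 gene models with annotation related to Ac or Tam3 lie outside the hAT rule, and none of them was called by limma in any comparison. At most 0.56% of all gene models were called in 1 direction of a comparison, so 6 without a call say little. In kyp their log2 changes ran from -1.85 in AT3G48235 (limma, adjusted p = 0.172) to 1.14 in AT1G37063 (adjusted p = 0.362). AT3G48235 fell further in kyp than any of the 77. In cmt3 the same genes were lowest and highest, at -1.34 (limma, adjusted p = 0.0987) and 0.94 (adjusted p = 0.145). AT1G42705 was the remaining gene among the largest positive values in cmt3, with 5.80 and 5.36 in wild type and 7.16 and 7.79 in cmt3. Its kyp arrays, at 5.69 on slide 1 and 7.84 on slide 2, lay apart by slide, and with the slide as a block its change in cmt3 was -0.26 against 1.89 without. Whether the slide contributes to its value was not tested.

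**Figure D4:**
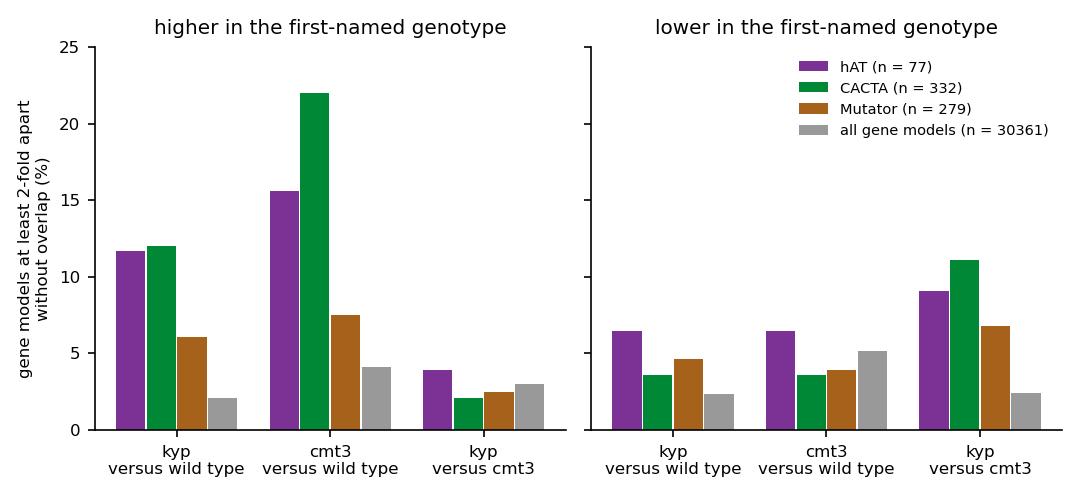
Share of gene models at least 2-fold apart without overlap between the arrays of 2 genotypes, in percent, for hAT, CACTA and Mutator genes and for all gene models, higher (left) and lower (right) in the genotype named first. Above wild type the hAT bars stand at 11.7% in kyp and 15.6% in cmt3, against 2.08% and 4.09% of all gene models.

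The silencing list held 21 genes, which act in silencing or, as IBM1, remove its marks. Of these, CMT3 in cmt3 was the 1 called, and none was called in kyp. Of all gene models, 0.56% were called higher and 0.181% lower in cmt3, and 0.0988% and 0.00659% in kyp. IBM1, the gene of a histone demethylase that removes the mark KYP makes, had the smallest p of the list in kyp, with 12.42 and 12.26 in wild type, 11.72 and 11.73 in kyp and 11.67 and 11.47 in cmt3. Its log2 changes of -0.61 ± 0.12 (SE; limma, adjusted p = 0.333) in kyp and -0.77 ± 0.12 (adjusted p = 0.0882) in cmt3 did not pass. The median change of the 21 was 0.06 in both mutants.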

How the data were processed

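Total RNA was converted to cDNA with an oligo(dT) primer, labelled with Cy3 and hybridized to NimbleGen arrays, per the labels. The deposited intensities, on a linear scale from 10.6 to 64963, had been normalized by RMA by the authors, per the labels; for its settings, software and version, nothing is given in the sources used here. Against the series' value table, 0 intensities differed. Loci, descriptions and coordinates are those of the deposited files, whose gene models are marked Release 6; no genome build is named, and names were added by locus from RefSeq TAIR10.1, which matched all 77 hAT loci.

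Intensities were put on the log2 scale, and limma (version 3.58.1, under R 4.3.3) fitted all 6 arrays at once, with 3 residual and 1.41 prior degrees of freedom. Calls needed p under 0.05 after Benjamini-Hochberg adjustment across the 30361 gene models, with no filter on dim ones. The fit was tested on simulated data with planted changes about as large as the largest among the hAT genes. That test does not bear on smaller changes. Arrays have no read depth. Precision depends on how many there are, and the spread between the wild type arrays also differed with the level of a gene. Other settings tried were quantile normalization, median centring, a pseudocount of 100, a filter on the lowest 25%, an intensity trend, robust moderation, a threshold of 0.10, the slide or the replicate number as a block, and leaving out arrays.

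Members and lists were chosen with earlier results of these data known. Named genes were those called, the 8 largest positive and 4 largest negative differences without overlap in each comparison, and the 5 highest and 3 lowest in wild type, with the silencing genes KYP, CMT3 and the called member or the smallest p of the list. A list of host genes descended from hAT transposases found no gene beyond the members. Replicate numbers were not taken as pairs: deviations of same-numbered arrays correlated at -0.12 to 0.00. Probe sequences were not used here.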

Additional observations from a re-analysis of the deposited data

Results flagged for a closer look

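DAYSLEEPER (AT3G42170) was the 1 hAT gene whose mutants moved apart in opposite directions: both kyp arrays lay above and both cmt3 arrays below both wild type arrays. The log2 changes against wild type were small, at 0.09 in kyp and -0.10 in cmt3. What share of all gene models shows such a pattern was not counted. The difference of kyp minus cmt3 was 0.20 ± 0.10 (SE; limma, adjusted p = 0.469, and from 0.305 to 0.842 over the other settings), so it did not pass the test, and the closest kyp and wild type arrays lay at 12.94 and 12.93. With kyp replicate 2 alone, which shares slide 2 with the cmt3 arrays, the difference was 0.23.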

How the results depend on the processing

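In cmt3, the 3 called hAT genes became 5 with a pseudocount of 100, 7 with an intensity trend (6 higher, 1 lower) and 6 at an adjusted p under 0.10, and 0 with the slide as a block, with the replicate block, or with only the 4 arrays of both genotypes. In fits without 1 array the count ran from 0 to 0. In kyp, 1 gene was called without the lowest 25% of gene models (AT3G45270, adjusted p = 0.0478), 1 with an intensity trend (AT3G43686, adjusted p = 0.0269) and 3 at an adjusted p under 0.10. The shares of all gene models called under these settings were not counted. Changes in the hAT counts, in either mutant, therefore cannot be told from a general change in calls. The numbers of genes past the 2-fold rule fell with the pseudocount from 14 to 5 in kyp and 17 to 4 in cmt3. Between the mutants they fell from 10 to 1, and the filter left 4 there. These settings shrink or drop dim genes. Shares of all gene models with the pseudocount are given above for each mutant against wild type. Between the mutants, and with the filter, such shares were not counted. The median change in cmt3 was 0.045 with the pseudocount and 0.26 with the filter, and that in kyp was 0.15 with the filter and -0.01 without kyp replicate 1. The change of AT1G42705 in cmt3 reversed with the slide as a block, at -0.26; the cause was not tested. Among silencing genes in cmt3, 1 call became 2 with the pseudocount and at the threshold of 0.10, 4 with the trend, and 0 with either block, with 4 arrays or without any 1 array; between the mutants it was 1 with the pseudocount, filter, trend or the threshold of 0.10. Quantile normalization, median centring, robust moderation and the series table changed no call. The replicate numbers are not known to pair arrays; under the replicate block the adjusted p of the 3 genes ran from 0.0612 to 0.0785. The comparisons within a slide and the shares of all gene models beside them were chosen after seeing the data.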
